A study of Mus musculus with 6 samples.

Results

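Genes of the Wnt pathway were followed in sorted blood endothelium of the mouse intestine after the neighbouring epithelium had lost Apc. The set held 42 genes, chosen by name for their place in the pathway and with earlier results of these data known. They cover ligands, receptors, inhibitors, the beta-catenin destruction complex, TCF/LEF transcription factors and target genes. Each gene was represented by the probe set that the array annotation assigns to it alone, and by the brightest such probe set where there were several. Of the 42 genes, 41 were measured among 22180 genes in all. Tcf7 had no probe set of its own.

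The mice were adults on a mixed C57BL/6 x 129 background, and all were given tamoxifen under the skin daily for 5 days and examined on day 6. The knockout animals, Apcfl//fl; Villin-CreERT2 (KO), carried floxed Apc and a tamoxifen-activated Cre recombinase whose villin promoter drives it in the gut epithelium. The control animals, labelled WT, Apcfl//fl, carried floxed Apc, and no Cre is named for them. Endothelial cells were sorted from collagenase-digested intestine as live single cells with CD31 and without CD45, EpCAM or gp38, the last being a marker of lymphatic endothelium and fibroblasts. There were 3 knockout and 3 control arrays, each labelled as a biological replicate. All are Affymetrix Mouse Gene 2.0 ST arrays of amplified RNA. The comparison of the 2 groups asks whether Wnt signalling genes of the endothelium differ when the epithelium has lost Apc.

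Wnt proteins bind Frizzled receptors together with the co-receptors Lrp5 and Lrp6. Without a signal, a complex of Apc, Axin and glycogen synthase kinase marks beta-catenin for destruction. With a signal, beta-catenin enters the nucleus and works with TCF/LEF factors on target genes, many of which encode inhibitors of the same pathway and so serve as its readout. Endothelial cells of the brain and retina use a branch in which Frizzled-4, its partner Tspan12 and the ligand Norrin keep the vessel barrier. In intestinal crypts, Wnt and R-spondin signals maintain stem cells, and loss of Apc there switches the targets on without a ligand.

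Promoter sequences are given for 3 genes: Fzd4, the gene of the set that passed the test described further on, and Sp5 and Dkk1, which encode a transcription factor and a secreted inhibitor that are read as targets of beta-catenin. Each is the 250 bases before the RefSeq start site (GRCm38.p6), 5′ to 3′ on the gene's own strand. Capitals mark matches on either strand to the TCF/LEF letters CTTTG followed by AA, AT, TA or TT. The capitals AACAAAG in Sp5 are such a match read on the opposite strand.
Fzd4, chr7:89404116-89404365, plus strand: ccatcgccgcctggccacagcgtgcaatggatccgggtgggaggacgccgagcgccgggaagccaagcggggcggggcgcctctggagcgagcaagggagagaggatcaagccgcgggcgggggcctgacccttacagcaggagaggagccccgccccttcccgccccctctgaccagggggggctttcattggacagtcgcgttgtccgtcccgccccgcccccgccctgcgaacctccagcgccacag
Sp5, chr2:70474673-70474922, plus strand: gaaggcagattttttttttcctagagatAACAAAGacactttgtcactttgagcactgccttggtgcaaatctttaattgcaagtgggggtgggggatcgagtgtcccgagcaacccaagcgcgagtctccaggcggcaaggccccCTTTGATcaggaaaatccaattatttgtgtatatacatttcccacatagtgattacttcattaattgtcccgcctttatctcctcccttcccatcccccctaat
Dkk1, chr19:30549497-30549746, minus strand: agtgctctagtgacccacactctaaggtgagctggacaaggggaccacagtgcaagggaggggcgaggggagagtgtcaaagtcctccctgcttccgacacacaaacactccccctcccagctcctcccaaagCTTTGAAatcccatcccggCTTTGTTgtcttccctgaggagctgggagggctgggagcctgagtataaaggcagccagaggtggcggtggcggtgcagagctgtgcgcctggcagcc

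Sp5 and Dkk1 held 2 matches each and Fzd4 none, where 14.8% of all 32851 promoter windows of this length held at least 1 match and 1.43% held 2 or more. Promoter windows were at hand for 26 of the 42 genes (34 windows), and 7 windows (20.6%), from 7 genes, held a match. Only the windows of Sp5 and Dkk1 held 2, so these sequences are not typical of the set. Of the other genes read as targets that had a window, Axin2, Nkd1, Cd44, Rnf43 and Tcf7 held 0 matches. Lef1 and Tnfrsf19 held 1 match in 1 of their windows. A match is a run of letters and does not show a bound site.

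Values are log2 after RMA, which corrects background, normalizes arrays to each other and summarises probes per probe set. A gene was tested when its mean over the 6 arrays lay above 4.12, the level that 90% of 1428 olfactory, vomeronasal and taste receptor genes do not exceed, taken as background. This left 15284 genes, 37 of them from the Wnt set. Wnt2 (3.59 to 4.23), Wnt5a (3.72 to 4.22), Sfrp2 (3.79 to 4.16) and Tnfrsf19 (3.96 to 4.33) were not above background. Tnfrsf19, with a mean of 4.10, lay just outside the limit and Ndp, with 4.18, just inside it. Groups were compared by limma with Benjamini-Hochberg adjustment over all 15284 genes, two-sided, and a gene passed at an adjusted p under 0.05. Changes are knockout minus control on the log2 scale, ± the standard error of that fit, and group means are given with the SD of 3 arrays.

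Pecam1, which encodes CD31, averaged 11.43 in both groups, and all 10 markers of blood endothelium were above background. Over all genes tested 2.61% passed in limma, 16.4% had an unadjusted p under 0.05 and 22.1% did not overlap between the groups. Enterocyte markers passed as lower in 9 of 10 members (median change -3.11). Mural markers, of smooth muscle and pericytes, did so in 6 of 10 (median -0.77). In both lists all 10 had an unadjusted p under 0.05 and lay lower on every knockout array than on any control. The summed level of the enterocyte markers, the log2 of their added linear signals, ran from 9.61 to 9.90 on the knockout arrays and from 11.74 to 13.49 on the control arrays, with control 1 the lowest control. For the mural markers it ran from 11.97 to 12.43 and from 12.87 to 13.12. Of 7 epithelial markers above background 0 passed in limma, 6 had an unadjusted p under 0.05, and Epcam averaged 3.77 in the knockout and 5.77 in the control. Crypt markers had 0 of 7 members passing in limma and 2 with an unadjusted p under 0.05, with Olfm4 not above background. Their summed level, Olfm4 included, ran from 9.47 to 9.62 on the knockout arrays and from 9.73 to 10.64 on the controls. Lymphatic markers passed as higher in 2 of 6, Lyve1 and Flt4, with Prox1 close to background at 4.42 and 4.37. The fibroblast list had 1 of 7 passing as lower, Col1a2. Of the 8 leukocyte and 4 enteric glia markers 0 passed in limma, with 2 and 0 at an unadjusted p under 0.05. In bulk samples, fewer cells of a type and less RNA per cell cannot be told apart.

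**Figure D1:**
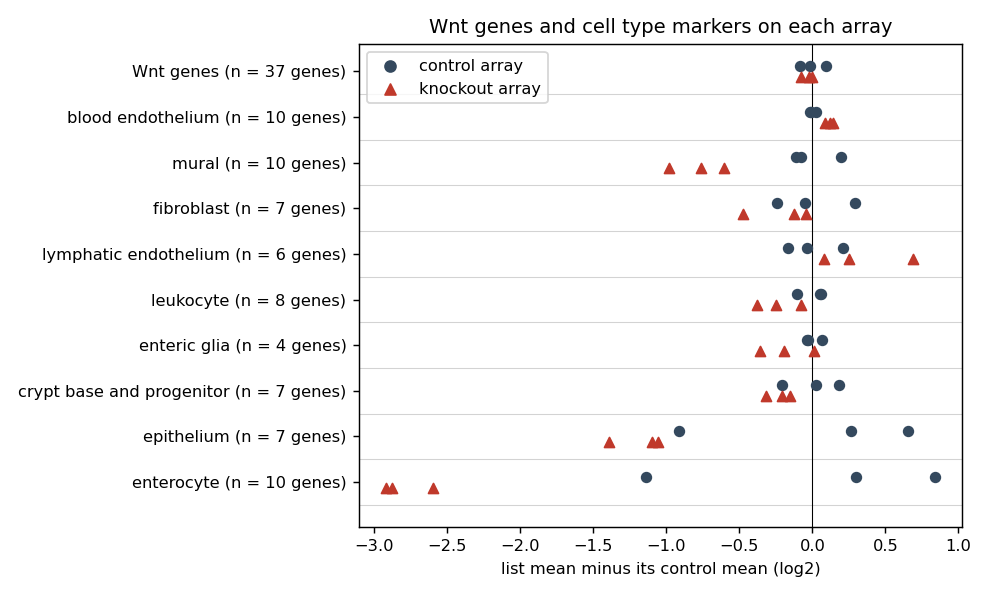
Mean of the Wnt genes and of each cell type marker list on every array (x axis, log2, relative to the list's control mean); circles are control arrays and triangles knockout arrays. The Wnt genes stay between -0.08 and 0.10 on all 6 arrays, while the enterocyte markers lie between -2.92 and -2.60 on the knockout arrays and control 1 lies at -1.14.

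In the Wnt set, 1 of 37 genes rose and 0 fell by limma, a share of 2.70% where 2.61% of all genes tested passed (1.13% higher, 1.48% lower). With any single array left out the count was 0. At an unadjusted p under 0.05 there were 3 of 37 genes (8.11%), against 16.4% of all genes. The knockout and control arrays did not overlap for 6 of 37 (16.2%), against 22.1% of all genes (9.79% higher, 12.3% lower). They were Fzd4, Tcf7l1 and Ccnd1, higher in the knockout, and Lrp6, Ctnnb1 and Nkd1, lower. These shares are close to or under those of all genes. The set was chosen with earlier results of these data known, so the shares do not test it as a set. The median change of the 37 genes was -0.07, with 12 changes above and 25 below 0, beside a median of -0.02 over all genes tested, of which 53.3% were below 0. Without control 1 the median was 2.6e-05, with 19 changes above and 18 below 0. With control 1 as the single control it was -0.13, with 8 above and 29 below 0.

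The 95% interval of the change lay within a 2-fold change in either direction for all 37 genes, as it did for 94.0% of all genes. It lay within a 1.5-fold change for 26 of the 37 (70.3%, against 67.8% of all genes). These are intervals per gene without adjustment for their number, and RMA values understate the change of genes near background. For 30 of the 37 genes (81.1%) the range of the 3 controls was larger than the difference between the groups, against 73.2% of all genes. Control 1 was the highest control for 20 of the 37 genes and control 3 the lowest for 19.

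**Figure D2:**
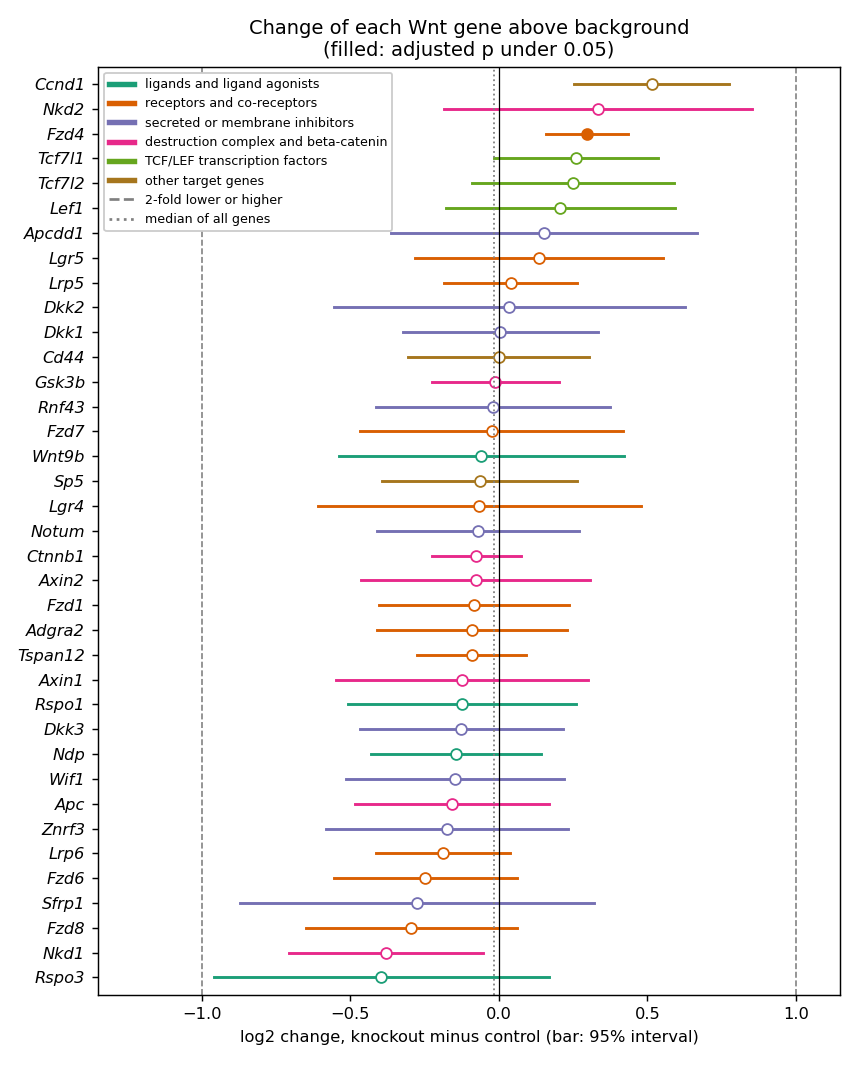
Log2 change of each of the 37 Wnt genes above background (x axis, knockout minus control), ordered by size, with its 95% interval and coloured by role; a filled point marks an adjusted p under 0.05. Fzd4 is the filled point, Ccnd1 has the highest change at 0.51 and Rspo3 the lowest at -0.40.

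Of the 4 ligand and agonist genes above background 0 passed in limma, with 0 at an unadjusted p under 0.05, and Wnt2 and Wnt5a were not above background. Rspo1, an R-spondin that strengthens Wnt signals through Lgr receptors, was at 6.33, 5.86 and 6.15 on the knockout arrays and at 6.38, 6.01 and 6.32 on the controls. Knockout 2 was the lowest array and the others overlapped (-0.12 ± 0.17, adjusted p = 0.776). Rspo3, the R-spondin best known from endothelium and crypt stroma, was at 4.58, 3.82 and 4.33 in the knockout and at 4.53, 5.10 and 4.28 in the control. Knockout 2 was below background and control 2 stood highest, so the change of -0.40 ± 0.25 (95% interval -0.96 to 0.17, adjusted p = 0.491) rests on a wide spread. It was -0.16 without control 2 and -0.57 without control 3. Wnt9b, a Wnt ligand, was at 4.74, 5.35 and 5.05 against 5.22, 4.73 and 5.35. Both groups spanned the same levels (-0.06 ± 0.21, adjusted p = 0.927). Ndp, which encodes Norrin, averaged 4.10 in the knockout, below background, and 4.25 in the control.

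Among the receptors, Fzd4 rose. Its product Frizzled-4 receives Norrin as well as Wnt proteins. It was at 10.83, 10.94 and 10.88 on the knockout arrays and at 10.51, 10.65 and 10.59 on the controls, so every knockout array lay above every control. The means were 10.88 ± 0.06 and 10.59 ± 0.07 (SD, n = 3), a change of 0.30 ± 0.06 or 1.23-fold (95% interval 1.12-fold to 1.35-fold, adjusted p = 0.0419). The adjusted p rose above 0.05 when any array was left out, to between 0.0705 (without control 2) and 0.129 (without knockout 3), while the change stayed between 0.26 and 0.33. The adjusted p was also above 0.05 without the background filter (0.0525), without the mean-variance trend (0.214) and with control 1 as the single control (0.186). Of the 10 blood endothelial markers, 6 had a change above and 4 below 0, from -0.09 for Emcn to 0.35 for Egfl7, with a median of 0.14. In limma 1 of them passed, Eng (0.26 ± 0.04, adjusted p = 0.0211), and 5 had an unadjusted p under 0.05, all higher. Their summed level ran from 14.55 to 14.57 on the knockout arrays and from 14.43 to 14.47 on the controls. The part of this shift in the rise of Fzd4 was not tested.

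The partners of Frizzled-4 did not pass. Tspan12, the tetraspanin that strengthens its Norrin signal, was at 9.89, 9.89 and 9.66 against 9.92, 9.93 and 9.87. Knockout 3 stood below the other 5 arrays, and the change was -0.09 ± 0.08 (95% interval -0.27 to 0.09, adjusted p = 0.639). Lrp5, the co-receptor in the same complex, was at 8.62, 8.88 and 8.66 against 8.78, 8.64 and 8.63. The groups overlapped (0.04 ± 0.10, adjusted p = 0.891). Lrp6, the related co-receptor, averaged 7.89 in the knockout and 8.08 in the control without overlap, and did not pass (-0.19 ± 0.10, adjusted p = 0.403). Its second probe set averaged 7.04 and 7.33, and there the groups overlapped. Knockout 1, at 7.40, was its highest array and knockout 2, at 6.61, its lowest.

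The other Frizzled genes overlapped between groups. Fzd6 averaged 7.69 and 7.94, Fzd8 6.14 and 6.43, Fzd1 6.02 and 6.10, and Fzd7 6.01 and 6.03 in knockout and control, with adjusted p-values from 0.401 to 0.970. Adgra2, the adhesion receptor Gpr124 through which brain endothelium responds to certain Wnt ligands, averaged 7.61 and 7.70 (adjusted p = 0.806). Lgr4 and Lgr5, receptors for R-spondins, averaged 5.73 and 5.79, and 4.94 and 4.80 (adjusted p = 0.928 and 0.773). Lgr5 is also the marker of intestinal stem cells, and its second probe set was not above background, at 3.70 and 3.63. In Lgr4, knockout 3 at 5.31 and control 3 at 5.34 stood apart from the other 4 arrays, which lay between 5.92 and 6.03.

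**Figure D3:**
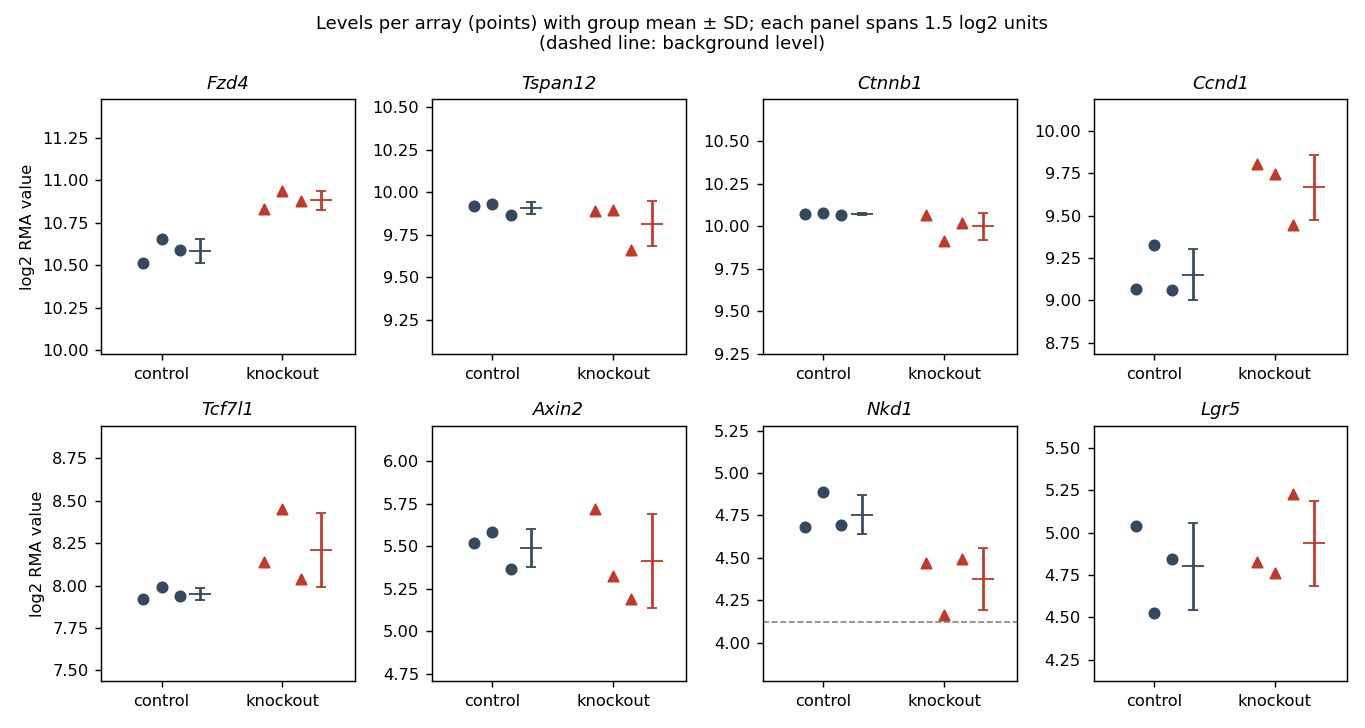
Log2 level of 8 Wnt genes on each array (circles control, triangles knockout), with group mean and SD beside the points; every panel spans the same height in log2 units. The groups do not overlap for Fzd4, Ctnnb1, Ccnd1, Tcf7l1 and Nkd1, and of the 8 only Fzd4 passed the test. The 8 were picked by name and hold most of the genes of the set without overlap. Over the 37 genes above background these were 6 (16.2%), against 22.1% of all genes.

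Of the 9 inhibitors above background 0 passed in limma, and 0 had an unadjusted p under 0.05. Dkk2, a secreted antagonist that binds the Lrp co-receptors, was at 6.15, 6.10 and 6.13 in the knockout and at 6.77, 5.88 and 5.62 in the control. Control 1 stood above all other arrays, the knockout arrays lay inside the control range, and the change was 0.03 ± 0.26 (95% interval -0.56 to 0.63, adjusted p = 0.968). Without control 1 the change was 0.37 (adjusted p = 0.350), and with it as the single control -0.64 (adjusted p = 0.290). Apcdd1, a membrane inhibitor that is a beta-catenin target in brain and retinal vessels, was at 6.63, 6.11 and 6.72 against 6.77, 6.18 and 6.06. The arrays of both groups were spread over the same range (0.15 ± 0.23, adjusted p = 0.798), and the change was 0.37 without control 1 and 0.012 without control 3. Sfrp1, a secreted Wnt-binding protein, was at 4.92, 5.73 and 4.70 against 5.63, 5.42 and 5.12. Knockout 2 stood above all controls and knockouts 1 and 3 below them (-0.27 ± 0.26, adjusted p = 0.668). The change was -0.58 without knockout 2 (adjusted p = 0.180) and -0.066 without knockout 3.

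Rnf43 and Znrf3, ubiquitin ligases that remove Frizzled from the cell surface and are themselves targets of the pathway, averaged 4.40 and 4.42, and 4.95 and 5.13 in knockout and control. Notum, an enzyme that inactivates Wnt proteins and is high in Apc-deficient epithelium, averaged 4.70 and 4.77. Dkk1, whose promoter is given above, averaged 4.39 in both groups. Dkk3 averaged 5.10 and 5.22, and Wif1, which binds Wnt proteins outside the cell, 5.07 and 5.22. Adjusted p-values of these 6 genes lay between 0.692 and 0.992.

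Inside the cell, 0 of 7 genes of the destruction complex and its surroundings passed in limma, and 1, Nkd1, had an unadjusted p under 0.05. Ctnnb1, which encodes beta-catenin, was at 10.07, 9.91 and 10.02 in the knockout and at 10.07, 10.08 and 10.07 in the control. The controls spanned a range of 0.01, and all 3 knockout arrays lay below them, knockout 1 only just, with a change of -0.08 ± 0.07 (95% interval -0.23 to 0.08, adjusted p = 0.636). Its protein level, on which signalling turns, was not measured. Gsk3b, the kinase of the complex, was at 8.93, 8.69 and 8.89 against 8.92, 8.87 and 8.76. The groups overlapped (-0.01 ± 0.09, adjusted p = 0.969).

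Apc was at 6.42, 6.24 and 6.38 in the knockout and at 6.29, 6.52 and 6.70 in the control. The groups overlapped (-0.16 ± 0.14, adjusted p = 0.650). Cre was driven by an epithelial promoter and the sorted cells were endothelial, so this level does not check the labels. Axin1, the scaffold of the complex, averaged 6.47 and 6.59 (adjusted p = 0.800).

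Axin2, a scaffold that is induced by beta-catenin in most tissues, was at 5.72, 5.33 and 5.19 against 5.52, 5.59 and 5.37. Knockout 1 was the highest and knockout 3 the lowest of the 6 arrays, with a change of -0.08 ± 0.17 (95% interval -0.46 to 0.31, adjusted p = 0.869). The interval allows a rise of up to 1.24-fold. The second probe set of Axin2 gave 5.28 and 5.35.

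Nkd1, a feedback inhibitor that acts on Dishevelled, was at 4.47, 4.16 and 4.49 in the knockout and at 4.68, 4.89 and 4.69 in the control. All knockout arrays lay below all controls, at levels within 1 log2 unit of background, and the change of -0.38 ± 0.14 did not pass (unadjusted p = 0.0268, adjusted p = 0.226 by limma). Enterocyte and mural markers were lower on the same arrays, with the summed levels given above, and their part in the difference was not tested. Nkd2, the related gene, was at 7.04, 7.31 and 7.33 against 6.83, 7.42 and 6.42. Control 2 was the highest array and control 3 the lowest (0.33 ± 0.23, adjusted p = 0.532). The change was 0.60 without control 2 (adjusted p = 0.169) and 0.099 without control 3.

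The TCF/LEF factors had positive changes in 3 of 3 measured genes, and 0 of 3 passed in limma, with 0 at an unadjusted p under 0.05. Tcf7l1, which mostly represses targets, was at 8.14, 8.45 and 8.04 in the knockout and at 7.92, 7.99 and 7.94 in the control. The groups did not overlap, although knockout 3 lay close to the controls (0.26 ± 0.12, 95% interval -0.02 to 0.53, adjusted p = 0.334). Tcf7l2, the main TCF of the intestinal epithelium and also present in endothelium, was at 8.13, 8.29 and 7.79 against 8.00, 7.83 and 7.64. Knockouts 1 and 2 were above the controls and knockout 3 among them (0.25 ± 0.15, adjusted p = 0.470). Lef1, which is induced by Wnt in brain endothelium, was at 4.43, 4.95 and 4.57 against 4.62, 4.27 and 4.44. Knockout 2 was the highest array and the others overlapped (0.21 ± 0.17, adjusted p = 0.609). In all 3 genes knockout 2 stood highest. Without it the changes were 0.14 for Tcf7l1, 0.14 for Tcf7l2 and 0.057 for Lef1.

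Among the remaining target genes, Ccnd1, which encodes cyclin D1 and answers to growth factor signals as well as to beta-catenin, was at 9.81, 9.75 and 9.45 in the knockout and at 9.07, 9.32 and 9.06 in the control. The groups did not overlap, and knockout 3 and control 2 came closest to each other. The means were 9.67 ± 0.19 and 9.15 ± 0.15 (SD, n = 3), and the change of 0.51 ± 0.12 had an adjusted p of 0.0545, just short of the threshold. It passed with the stricter background level (adjusted p = 0.0449) and with arrays centred on their medians (adjusted p = 0.0342). It also passed with the replicate number as a block (adjusted p = 0.0415), although no label says that the numbers pair the samples. It did not pass without the background filter (adjusted p = 0.0733), without the mean-variance trend (adjusted p = 0.134) or with any array left out (adjusted p from 0.0579 to 0.168).

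Cd44, a hyaluronan receptor and a target in intestinal tumours, was at 5.69, 5.48 and 5.71 against 5.66, 5.61 and 5.62. The means were level at 5.63 (95% interval -0.30 to 0.30, adjusted p = 1.00). Sp5, whose promoter holds 2 TCF/LEF matches, was at 5.22, 5.16 and 5.27 against 5.46, 5.10 and 5.29. The knockout arrays lay within the control range (-0.06 ± 0.14, 95% interval -0.39 to 0.26, adjusted p = 0.874).

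Read together, 14 genes of the set are targets used as readouts of the pathway: Axin2, Nkd1, Rnf43, Znrf3, Notum, Sp5, Lgr5, Apcdd1, Lef1, Tcf7, Dkk1, Tnfrsf19, Ccnd1 and Cd44. Of these, 12 were above background, and 6 had a change above and 6 below 0. In limma 0 passed, where 2.61% of all genes did. At an unadjusted p under 0.05 there were 2 (16.7%, against 16.4% of all genes), Ccnd1 higher and Nkd1 lower. Their median change was -0.01. Relative to the control mean, the average of the 12 was 0.01 to 0.03 on the knockout arrays and -0.09 to 0.10 on the controls. The summed level weights genes by signal and covers the 12, Ccnd1 among them, and also Tnfrsf19, which was not above background. It ran from 10.14 to 10.36 on the knockout arrays and from 9.87 to 10.01 on the controls, without overlap. On every array most of this sum came from Ccnd1 alone, which ran from 9.45 to 9.81 and from 9.06 to 9.32 and did not pass. The groups overlapped in the average, which weights genes equally. The gap between the sums therefore rests on Ccnd1 and does not show a shift of the targets as a set.

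**Figure D4:**
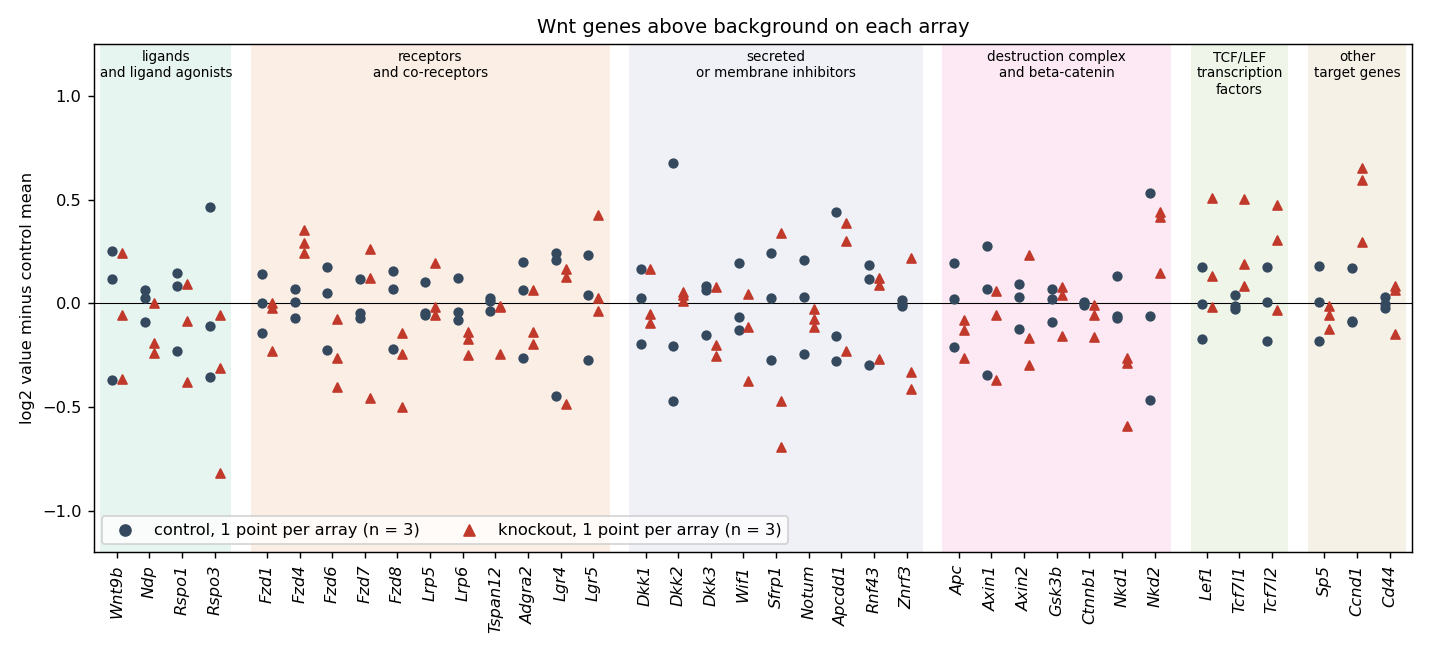
Log2 value of each of the 37 Wnt genes above background on every array (y axis, relative to the gene's control mean), grouped by role; circles are control arrays and triangles knockout arrays. For 6 of the 37 genes the knockout and control arrays do not overlap, and the controls alone span 1.14 in Dkk2, 1.00 in Nkd2, 0.82 in Rspo3 and 0.72 in Apcdd1.

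Outside the set, 82 further components of the pathway were listed, of which 69 were above background. None passed in limma (0 of 69), and 5 had an unadjusted p under 0.05, or 7.25% against 16.4% of all genes. They were Tnks, a tankyrase that promotes Axin turnover (-0.40 ± 0.13, adjusted p = 0.164), the Frizzled gene Fzd5 (-0.33 ± 0.13, adjusted p = 0.228), Amer1, which binds Apc (-0.50 ± 0.20, adjusted p = 0.260), the ligand gene Wnt6 (-0.39 ± 0.17, adjusted p = 0.297), and Csnk1a1, the kinase that primes beta-catenin (0.24 ± 0.09, adjusted p = 0.216). Among ligands and their secretion genes 17 of 20 were above background, with Wnt3 and Wnt3a not above it. Of secreted inhibitors it was 6 of 9. The median change of the 69 genes was -0.03.

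Among 15 further target genes above background, 0 passed in limma and 6 had an unadjusted p under 0.05, or 40.0% against 16.4% of all genes, 3 in each direction. The groups did not overlap for 7 of the 15 (46.7%), against 22.1% of all genes. The list was chosen with earlier results of these data known, so these shares do not test it as a set. Myc was at 7.65, 8.00 and 8.06 in the knockout and at 7.52, 6.93 and 7.54 in the control, without overlap (0.58 ± 0.18, adjusted p = 0.156). Cdca7 (0.55 ± 0.20, adjusted p = 0.199) and Bambi, a decoy receptor for BMP signals (0.24 ± 0.09, adjusted p = 0.229), had positive changes as well. Those of Sox9, a factor of crypt cells (-0.47 ± 0.15, adjusted p = 0.159), Bmp4 (-0.44 ± 0.15, adjusted p = 0.196) and Ascl2, a factor of intestinal stem cells (-0.33 ± 0.13, adjusted p = 0.261), were negative. Epithelial markers had a median change of -0.997 with 6 of 7 lower at an unadjusted p under 0.05, crypt markers had the summed levels given above, and their part in these differences was not tested. The median change of the 15 genes was 0.02.

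A last list held 13 genes that beta-catenin controls or that mark the barrier in brain endothelium, of which 11 were above background. Of these, 3 rose and 2 fell in limma, or 45.5% against 2.61% of all genes. The list was chosen with earlier results of these data known, so this share does not test it as a set. Over all further Wnt genes above background, 5 passed, and 2 without knockout 1 or knockout 2 and 1 without knockout 3 or control 3. The transporter genes Slc7a5 (1.49 ± 0.28, adjusted p = 0.0278) and Slc2a1 (0.48 ± 0.09, adjusted p = 0.0272) and Ctla2a (0.33 ± 0.06, adjusted p = 0.0227) rose. The claudin gene Cldn5 (-1.28 ± 0.19, adjusted p = 0.0137) and the efflux pump gene Abcb1a (-0.53 ± 0.08, adjusted p = 0.0137) fell. Sox17, a transcription factor of arterial endothelium, was at 9.08, 9.22 and 9.13 against 9.90, 9.38 and 9.72, without overlap, and did not pass (-0.52 ± 0.12, adjusted p = 0.0644). Plvap, the fenestra gene that beta-catenin represses in brain vessels, averaged 12.31 and 12.06 (0.25 ± 0.06, adjusted p = 0.0527). Abcg2, another efflux pump gene, averaged 8.41 and 8.68 (-0.26 ± 0.08, adjusted p = 0.144). Mfsd2a, Foxf2 and Foxq1, all of them genes of the brain vessel barrier, averaged from 4.57 to 5.15, and Slco1c1 was not above background. Mural and enterocyte markers were lower on the same arrays, and their part in these differences was not tested.

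**Figure D5:**
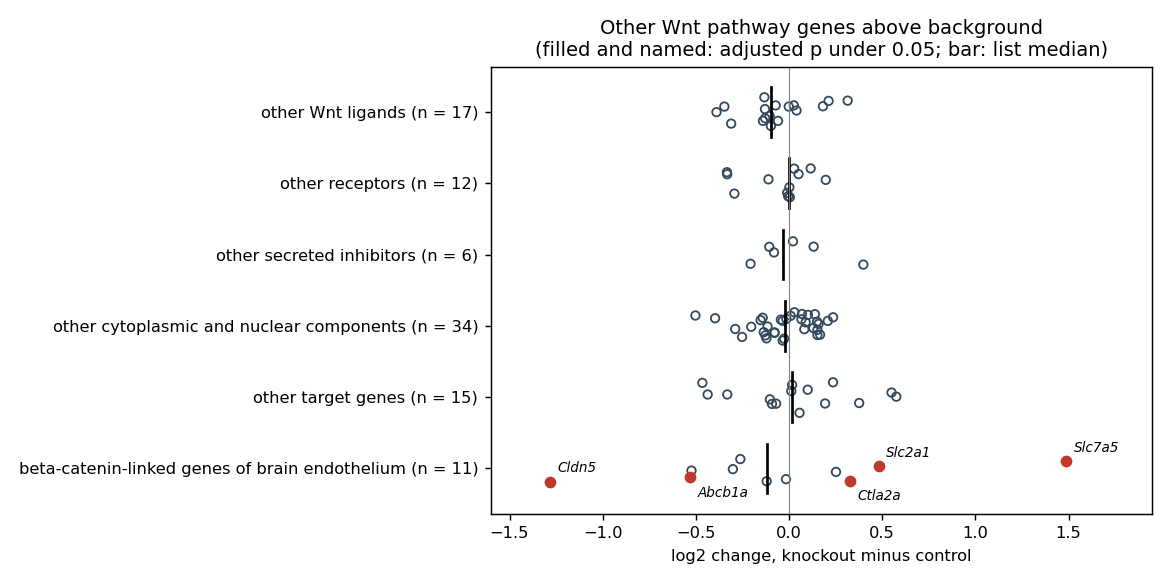
Log2 change (x axis, knockout minus control) of other Wnt pathway genes above background, in 6 lists; filled points with names passed at an adjusted p under 0.05 and the bar is the list median. The 5 filled points, from -1.28 for Cldn5 to 1.49 for Slc7a5, are all in the list of brain endothelium genes. That list, like the others, was chosen with earlier results of these data known.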

How the data were processed

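For 41345 probe sets on 6 arrays, the authors deposited log2 values made with RMA in the oligo package, per the submitters' processing notes. Its version is not given in the sources used here. Array medians lay between 4.77 and 4.81, and arrays have no read depth, so their number limits the precision. The platform annotation gives 1 gene to 23521 probe sets, which were used, and several to 1814 or none to 16010, which were not. Over the genes tested, arrays correlated at 0.977 to 0.984 within groups and at 0.964 to 0.974 between them.

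The test was limma's moderated fit with a variance trend (version 3.58.1, R 4.3.3), and the procedure was tested on simulated data. In 10 simulations it recovered 22.6% of log2 changes of 0.5 and 92.8% of those of 1, so most changes of 0.5 were missed. The labels call the arrays biological replicates and name no litter, day or batch. The members and lists were chosen with earlier results of these data known, so no list was tested as a set. All genes of the set are accounted for. Values per array are given for those with an unadjusted p under 0.05, for the 3 brightest of each role and, outside that rule, for Axin2 and Apc. From further lists, genes past the threshold and those with the smallest p are named, and Emcn, Egfl7, Sox17, Plvap, Abcg2, Bambi, Ascl2 and the low genes of the brain endothelium list were named after their values were seen. Promoters came from RefSeq tables of GRCm38.p6. Plots were drawn with matplotlib 3.10.9.

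Alternatives covered the background filter, normalization, choice of probe sets, variance model, array weights, threshold, a replicate block, and each array left out in turn. The setting against control 1 alone was chosen after seeing the data.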

Additional observations from a re-analysis of the deposited data

How the results depend on the processing

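Over all genes 399 passed, and 139 without the variance trend, 768 at an adjusted p of 0.1, 52 against control 1 alone and 88 to 380 with an array left out. Of the Wnt set 1 gene passed (Fzd4), and 2 with the stricter background, median centring, the adjusted p of 0.1 or the replicate block, where Ccnd1 is added, but 0 without the filter, without the trend, against control 1 alone and with any array left out. The further Wnt genes gave 5 calls, 1 without the trend and 1 against control 1 alone, and 1 to 5 with an array left out. The median of the Wnt set was -0.07, ran from -0.078 to 2.6e-05 with an array left out, and was -0.13 against control 1 alone.

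Small changes turned sign. Gsk3b was at 0.011 after centring and 0.014 with array weights. Against control 1 alone, Lrp5 was at -0.061, Apcdd1 at -0.29, Dkk2 at -0.64, Cd44 at -0.028 and Apc at 0.054. With an array left out, Wnt9b ran from -0.24 to 0.094, Rspo1 from -0.24 to 0.0025, Lrp5 from -0.038 to 0.090, Dkk2 from -0.20 to 0.37, Gsk3b from -0.058 to 0.060, Cd44 from -0.042 to 0.074, Sp5 from -0.16 to 0.024 and Axin2 from -0.23 to 0.033. The cause was not tested.

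Same-numbered arrays of the groups deviated from their group means with correlations of -0.02, -0.01 and 0.04. For differently numbered arrays the correlations ran from -0.03 to 0.03. No label says that the numbers pair the samples, and correlations over all genes cannot settle whether they do. With the replicate block 394 genes passed, 313 of them among the 399, with 2 from the Wnt set and 6 further Wnt genes. With 3 arrays a group, genes near background such as Nkd1, Lef1 and Dkk1 are measured with little signal.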
